A study of Homo sapiens with 4 samples.

Results

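KRT34, KRTAP1-5 and KRTAP2-3 are 3 genes of the keratin cluster on chromosome 17, out of 33538 genes in the count table. They were chosen on measured values, because their unique molecular identifier (UMI) counts had been seen to be higher with an shRNA against APC at both sampling days, so the shAPC against shScr values below are a description and carry no test. Single-cell RNA-seq by 10x Genomics chemistry was done on HCEC 1CT, a human colonic epithelial cell line immortalised with TERT and CDK4, after viral delivery of shAPC or of a scrambled control (shScr) and puromycin selection. Cells were sampled at day 3 and day 7, and each of the 4 combinations of shRNA and day is a group of 1 library, all from this 1 line. Values below are given in a fixed order, with both libraries of day 3 first and, within a day, the shScr library before the shAPC library. No difference below therefore has a replicate check, and every 95% interval covers counting error only.

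Hair keratins are intermediate filament proteins that fill the cells of the hair cortex, where an acidic (type I) partner pairs with a basic (type II) one. Keratin-associated proteins are small, cysteine-rich proteins that cross-link these filaments in the hardening hair shaft. Wnt signalling through beta-catenin and LEF1 is known to drive hair shaft differentiation in the follicle, and APC is a scaffold of the complex that degrades beta-catenin. KRT34 is a type I hair keratin, and KRTAP1-5 and KRTAP2-3 belong to the high-sulphur families of keratin-associated proteins.

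All 3 genes lie on the minus strand of chromosome 17 in GENCODE 44 (hg38, the build family of the files). KRTAP1-5 (ENSG00000221852) spans chr17:41026026-41027208 and KRTAP2-3 (ENSG00000212724) spans chr17:41059240-41060114, each as 1 exon. KRT34 (ENSG00000131737) spans chr17:41377669-41382306 in 7 exons. The start sites of KRTAP1-5 and KRTAP2-3 are 32.9 kb apart, and 322 kb separate KRTAP2-3 from KRT34. The 250 bases before each start site are shown because the genes differ in the letters there while sharing a TATA element, and KRTAP2-4 is shown as the next gene to KRTAP2-3 that was almost without counts. The sequences are from RefSeq on GRCh38.p14, written 5′ to 3′ on the gene's strand, and capitals mark TATAAA and CTTTGA.
KRT34: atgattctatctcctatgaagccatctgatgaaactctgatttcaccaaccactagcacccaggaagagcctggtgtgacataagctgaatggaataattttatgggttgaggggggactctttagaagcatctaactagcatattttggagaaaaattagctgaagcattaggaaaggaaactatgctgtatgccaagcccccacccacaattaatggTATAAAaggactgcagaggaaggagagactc
KRTAP1-5: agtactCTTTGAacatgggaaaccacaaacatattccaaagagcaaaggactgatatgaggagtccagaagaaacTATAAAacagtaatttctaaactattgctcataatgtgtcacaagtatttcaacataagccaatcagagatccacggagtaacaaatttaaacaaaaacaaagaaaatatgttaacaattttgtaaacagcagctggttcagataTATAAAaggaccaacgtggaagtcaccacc
KRTAP2-3: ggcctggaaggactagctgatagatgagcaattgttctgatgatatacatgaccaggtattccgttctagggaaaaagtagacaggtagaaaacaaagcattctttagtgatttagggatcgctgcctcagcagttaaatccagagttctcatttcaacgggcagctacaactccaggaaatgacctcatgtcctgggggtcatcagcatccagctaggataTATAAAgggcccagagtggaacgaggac
KRTAP2-4: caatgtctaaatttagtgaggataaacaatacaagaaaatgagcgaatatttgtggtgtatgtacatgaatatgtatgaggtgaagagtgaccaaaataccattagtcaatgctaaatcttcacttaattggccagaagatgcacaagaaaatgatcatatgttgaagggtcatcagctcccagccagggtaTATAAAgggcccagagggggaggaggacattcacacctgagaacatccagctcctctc

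These windows are chr17:41382307-41382556 for KRT34, chr17:41027209-41027458 for KRTAP1-5, chr17:41060115-41060364 for KRTAP2-3 and chr17:41065880-41066129 for KRTAP2-4. TATAAA, the core of the TATA element, begins 31 bases before the start of KRT34, 30 before that of KRTAP1-5 and 28 before that of KRTAP2-3, and KRTAP1-5 holds another copy that begins 175 bases before its start. In KRTAP2-4 it begins 58 bases before the annotated start, inside an 18-base run that is identical in KRTAP2-3. CTTTGA, a core of LEF/TCF sites, was present once among the 3 genes, beginning 244 bases before the start of KRTAP1-5. Both motifs were searched on both strands, were picked after the sequences had been read, and do not overlap each other. TATAAA was found in 10.7% of 35116 windows of the same length and in 80.9% of the 47 windows of 44 type I hair keratin and chromosome 17 keratin-associated protein genes. The corresponding shares for CTTTGA were 11.2% and 44.7%. A match is a run of letters and not a measured binding site.

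The deposited files held 1471, 1047, 3652 and 3035 barcodes in that order, of which 1116, 788, 2600 and 1478 were kept, with 28451455 to 39797418 UMIs per library. The kept cells of shScr day 7 were shallow, with a median of 1330 UMIs against 21029.5 to 49685.5 in the others. Between 1 and 19 kept barcodes were shared by any pair of libraries. APC, the targeted gene, measured 16.1, 5.52, 19.1 and 6.61 CPM (UMIs per 1000000 UMIs of the library) in that order, a log2 ratio of -1.54 at day 3 and -1.53 at day 7. Of the 8 markers of colonic epithelium, KRT8, KRT18 and KRT19 were measured, and EPCAM, CDH1, VIL1, CDX2 and KRT20 stayed under 4 UMIs in every library. The list summed to 17.1 to 32.3 CPM, whereas 8 mesenchymal markers, among them VIM and COL1A1, summed to 5991 to 7992 CPM. Of the colonic epithelium markers only simple keratins were thus measured in these libraries, and the name colonic epithelial is that of the line. The hair cortex and matrix list summed to 0.628 to 1.93 CPM, with KRT35, KRT85 and FOXN1 at 0 everywhere, the blood list to 0.0754 to 0.658 CPM and the endothelial list to 0.0320 to 0.126 CPM. The keratinocyte list summed to 234 to 299 CPM, nearly all of it KRT10 (232 to 298 CPM), with KRT5 and KRT1 at 0 everywhere.

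KRT34 was counted 467 and 1779 times in the shScr and shAPC libraries of day 3, and 319 and 814 times in those of day 7. These counts correspond to 11.7 CPM (95% Poisson interval 10.7 to 12.8), 50.9 (48.6 to 53.3), 10.2 (9.12 to 11.4) and 28.6 (26.7 to 30.6). Both shAPC libraries were above both shScr libraries, and the shScr libraries lay close together. The shAPC against shScr ratio was 4.34-fold at day 3, a log2 ratio of 2.12 (1.97 to 2.27, exact conditional interval), and 2.80-fold at day 7, a log2 ratio of 1.49 (1.30 to 1.68). From day 3 to day 7 the level was lower within shAPC, by a log2 ratio of -0.83 (-0.95 to -0.71). Within shScr the corresponding ratio was -0.20 with an interval that included 0 (-0.41 to 0.01).

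KRTAP1-5 was counted 714, 2943, 366 and 1622 times in the same order of libraries. Its levels were 17.9 CPM (16.6 to 19.3), 84.2 (81.2 to 87.3), 11.7 (10.5 to 13.0) and 57.0 (54.3 to 59.9). KRTAP1-5 was well above shScr in both shAPC libraries. It was 4.69-fold higher at day 3 (log2 ratio 2.23, interval 2.11 to 2.35) and 4.86-fold higher at day 7 (2.28, 2.12 to 2.45). The closeness of these ratios rests on scaling by total UMIs, since TMM gave 1.85 and 2.27 and means over cells 1.87 and 2.30, and the difference between the days was not tested. Its level was lower at day 7 than at day 3 within each shRNA, with log2 ratios of -0.61 (-0.80 to -0.43) in shScr and -0.56 (-0.65 to -0.48) in shAPC, against -0.68 and -0.26 with TMM.

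KRTAP2-3 was counted 1294, 3877, 809 and 933 times. Its levels were 32.5 CPM (30.8 to 34.3), 111 (107 to 114), 25.9 (24.1 to 27.8) and 32.8 (30.7 to 35.0). The value of shAPC day 3 stood apart, and that of shAPC day 7 was almost the same as that of shScr day 3. The shAPC ratio was 3.41-fold at day 3 (log2 ratio 1.77, interval 1.68 to 1.86) but 1.27-fold at day 7 (0.34, 0.20 to 0.48). Within shAPC the level at day 7 was 0.296 times that at day 3 (log2 ratio -1.76, -1.86 to -1.65), and within shScr 0.797 times (-0.33, -0.46 to -0.20). That all 3 genes were higher in shAPC at both days follows from how they were chosen. The difference was 2-fold or more at both days for KRT34 and KRTAP1-5, but not for KRTAP2-3.

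**Figure D1:**
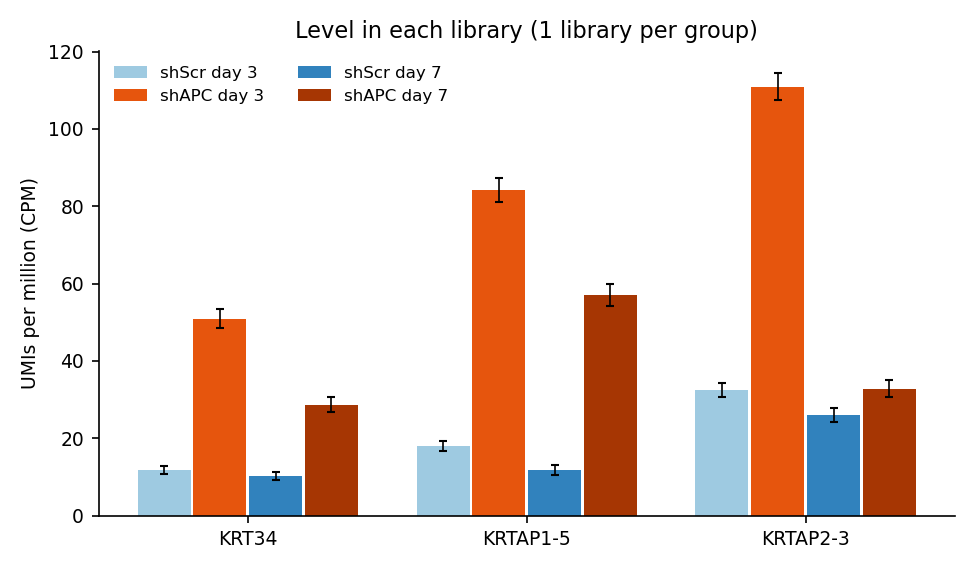
Bars give the level (CPM) of KRT34, KRTAP1-5 and KRTAP2-3 in the 4 libraries, 1 library per group, and error bars are exact Poisson 95% intervals, which cover counting error only. Both shAPC libraries are well above both shScr libraries for KRT34 and KRTAP1-5, whereas for KRTAP2-3 shAPC day 7 (32.8 CPM) is near shScr day 3 (32.5 CPM).

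Over the whole table, with a minimum of 20 CPM in either library of a pair and 1 CPM added before the log, 3.86% were at least 2-fold higher in shAPC at day 3 (200 of 5175), 0.787% at day 7 (36 of 4573) and 0.202% at both days (9 of 4448). These shares are printed as background, because the 3 genes were chosen on this contrast. KRTAP1-5 had the rank 28 at day 3 and 2 at day 7, KRT34 had 36 and 9, and KRTAP2-3 had 57 and 424. KRT34 (11.7 and 10.2 CPM in shScr) and KRTAP1-5 (17.9 and 11.7 CPM) reached the minimum of 20 CPM only in the shAPC libraries. A gene this low in shScr enters only if it is high in shAPC, so these ranks and the list that follows are partly set by the filter. The 9 genes that were at least 2-fold higher at both days were KRTAP1-5, MT1F (a metallothionein), HMOX1 (haem oxygenase), CDK6 (a kinase of G1 progression), KRT34, RABL6, MGAT4B, BTG2 and TP53INP1 (the last 2 being known p53 targets). The smaller of the 2 log2 ratios was 2.17 for KRTAP1-5 and 1.40 for KRT34, and it was 1.00 for TP53INP1, just inside the limit, and 0.99 for FENDRR, just outside it. The median over the genes that met the 20 CPM minimum (5175 and 4573) was itself shifted, to 0.28 at day 3 and to -0.10 at day 7. Relative to it the log2 differences were 1.75 and 1.50 for KRT34, 1.89 and 2.28 for KRTAP1-5, and 1.46 and 0.42 for KRTAP2-3.

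**Figure D2:**
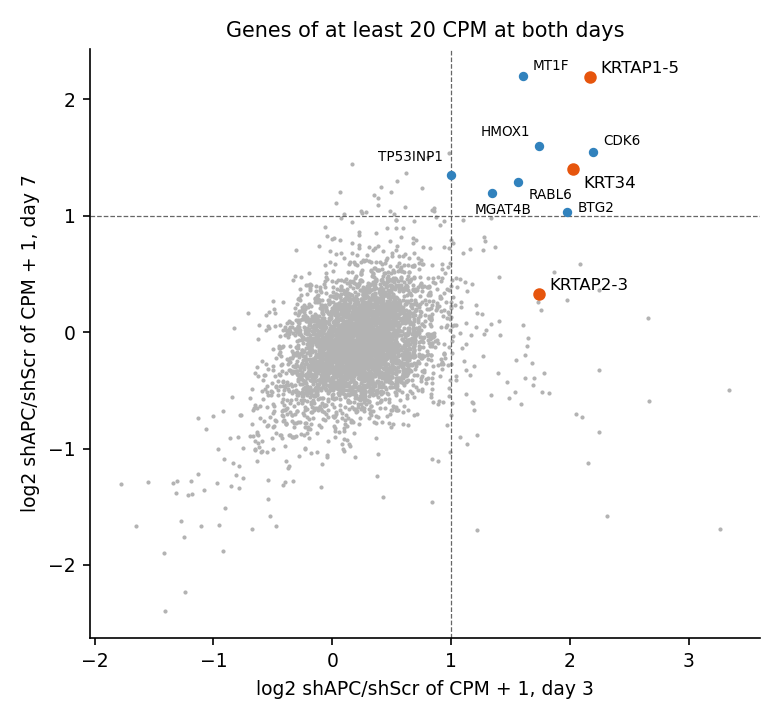
Each grey point is 1 of the 4448 genes that reached 20 CPM in either library of each day, placed by its log2 shAPC/shScr ratio (1 CPM added) at day 3 (horizontal) and day 7 (vertical), and dashed lines mark 2-fold. Orange points are KRT34, KRTAP1-5 and KRTAP2-3, blue points are the other genes at least 2-fold higher at both days, and KRTAP2-3 lies right of the vertical line but below the horizontal one.

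The counts in the cluster were concentrated in these 3 genes. Between KRTAP1-5 and KRT34 the table lists 34 genes over 355 kb, of which 3 had at least 100 UMIs in 1 library, and 22 had none in any library. The largest count of the other 31 was 16 UMIs, for KRTAP4-9 in shAPC day 3. Next to KRTAP1-5, KRTAP1-4 and KRTAP1-3 were at 0 and KRTAP3-1 had 2 UMIs in shAPC day 7. Next to KRTAP2-3, KRTAP2-1 was at 0, and KRTAP2-2 and KRTAP2-4 reached 2 and 1 UMIs, in the shAPC libraries. Next to KRT34, KRT33B had 4, 10, 4 and 7 UMIs, KRT33A was at 0, KRT31 had 1 UMI, in shAPC day 7, and the long noncoding gene ENSG00000234859 had at most 1. The pseudogenes KRTAP3-4P and KRTAP2-5P, which are also neighbours, are not in the count table.

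Near-identical copies could share reads, so the annotated transcripts were compared. Of the 50-base words of KRTAP2-3, 39.7% also occur in KRTAP2-4, KRTAP2-1 or KRTAP2-2, against 12.2% of those of KRT34 in KRT33B, KRT33A or KRT31 and 4.41% of those of KRTAP1-5 in its relatives. In the last 500 bases, where 3′ tags are read, the shares were 2.66% for KRTAP2-3 and 0 for both others. They were 25.5% for KRTAP2-4, 43.5% for KRTAP2-2 and 45.5% for KRTAP2-1. The part of such shared words in the low counts of these 3 neighbours was not tested. How the counting treated reads with several matches is not given in the sources used here.

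**Figure D3:**
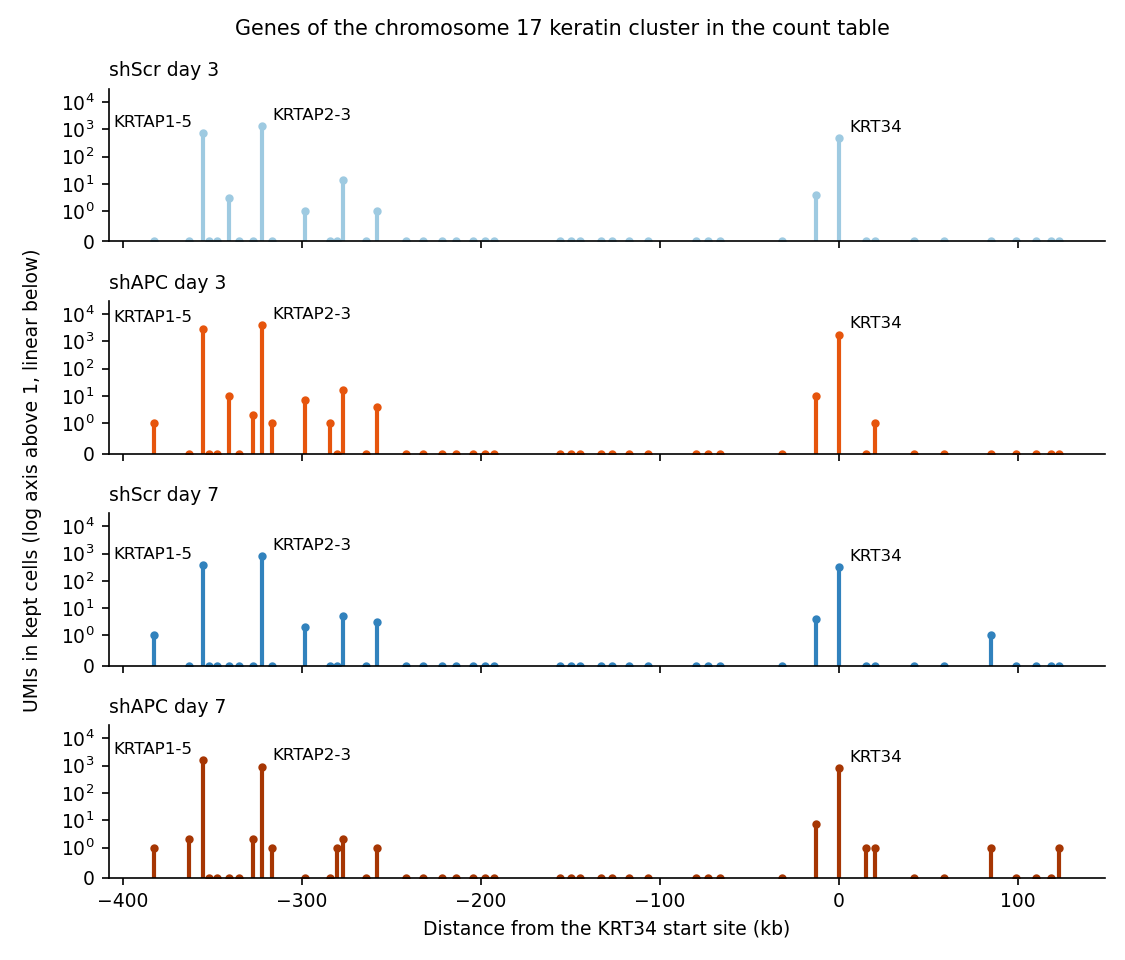
Each stem is 1 gene of the count table, placed by the distance of its start site from that of KRT34 in kb (negative towards KRTAP1-5), and its height is the number of UMIs in the kept cells of 1 library, on an axis that is logarithmic above 1 UMI. KRTAP1-5, KRTAP2-3 and KRT34 have 319 to 3877 UMIs in every library, and no other gene between KRTAP1-5 and KRT34 exceeds 16.

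The wider family was read from lists of related genes, counting those with at least 4 UMIs in 1 of the libraries compared. Over all genes 79.1% were higher in shAPC at day 3 and 51.8% at day 7, the first of which became 49.5% with TMM scaling, which lowered every ratio at day 3 by 0.38 on the log2 scale and left KRT34, KRTAP1-5 and KRTAP2-3 at 1.74, 1.85 and 1.39. Of 11 type I hair keratins 2 were measured, KRT34 and KRT33B, and both were higher at both days, KRT33B by log2 ratios of 1.51 (-0.28 to 3.64) and 0.94 (-1.03 to 3.16), whose intervals include 0. Of 34 keratin-associated proteins of chromosome 17, 6 were measured at day 3 and all 6 were higher, and 2 of 3 were higher at day 7. Beside KRTAP1-5 and KRTAP2-3 these were KRTAP1-1 with 3, 10, 0 and 0 UMIs, KRTAP4-7 with 1, 7, 2 and 0, KRTAP4-9 with 14, 16, 5 and 2, and KRTAP4-12 with 1, 4, 3 and 1. These counts are so low that only KRTAP4-7 at day 3 had an interval above 0 (log2 ratio 2.99, 0.03 to 8.49). At day 3 KRTAP1-1, KRTAP4-7 and KRTAP4-12 reached 4 UMIs only in shAPC, so the limit fixed their direction. KRTAP1-5 and KRTAP2-3 had been chosen for being higher. KRTAP4-9 had a log2 ratio of 0.38 at day 3, which became 0.0003 with TMM scaling. At day 7 KRTAP4-9, the gene that was lower, reached 4 UMIs only in shScr.

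Type II hair keratins, the partners with which KRT34 would pair, were represented by KRT81 and KRT86, and KRT82, KRT83, KRT84 and KRT85 were at 0 in all libraries. KRT81, which was under the level set for naming and was singled out after its values were seen, had 23, 209, 26 and 256 UMIs. It was 10.3-fold higher in shAPC at day 3 (log2 ratio 3.37, interval 2.75 to 4.06) and 10.8-fold at day 7 (3.43, 2.85 to 4.08). KRT86, likewise singled out, had 8, 17, 10 and 22 UMIs, with log2 ratios of 1.28 (-0.01 to 2.70) and 1.27 (0.13 to 2.51). Of the 50-base words of KRT81, 44.6% occur in relatives such as KRT86, and none of those in its last 500 bases.

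Epithelial keratins, which line simple and stratified epithelia, were read for comparison. Of 18 type I epithelial keratins 6 were measured at day 3, all higher, and 5 at day 7, of which 3 were higher, none of them 2-fold at day 7. With TMM scaling 4 of the 6 were higher at day 3. Over all genes 79.1% were higher at day 3 and 51.8% at day 7, and 49.5% at day 3 with TMM scaling. KRT14, under the level set for naming, had 1 and 4 UMIs at day 3, so it met the limit only through shAPC. It was the only gene of this list that was 2-fold higher at day 3. KRT10, a keratin of differentiating epidermis, had 232, 267, 298 and 271 CPM, with log2 ratios of 0.20 (0.16 to 0.25) at day 3 and -0.14 (-0.18 to -0.09) at day 7. KRT7, a type II keratin of simple epithelia, had 54.2, 87.1, 69.9 and 67.5 CPM, with log2 ratios of 0.68 (0.60 to 0.76) and -0.05 (-0.14 to 0.04). KRT8 and KRT19, also of simple epithelia, were under the level set for naming and were singled out after their values were seen. Both were higher in shAPC at both days, KRT8 by log2 ratios of 0.59 (0.43 to 0.76) and 0.66 (0.44 to 0.87). KRT19 had 0.74 (0.42 to 1.07) and 0.97 (0.54 to 1.40), whereas KRT18 had 0.76 and -0.77. At day 3 TMM scaling left KRT8 at 0.21 and KRT19 at 0.36. Of 20 type II epithelial keratins 3 were measured, with 2 higher at day 3 and 1 at day 7.

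Regulators of hair shaft genes were sparse. LEF1, the nuclear partner of beta-catenin in the follicle, had 7, 14, 17 and 34 UMIs, with log2 ratios of 1.19 (-0.22 to 2.74) and 1.13 (0.25 to 2.07). HOXC13, a homeobox factor known to act on hair keratin genes, had 12, 13, 8 and 9 UMIs, with log2 ratios of 0.30 (-0.95 to 1.56) and 0.30 (-1.24 to 1.88). Of the 11 regulators 6 of 7 measured were higher at day 3 and 5 of 8 at day 7, and with TMM scaling 3 of 7 at day 3. These shares of 85.7%, 62.5% and 42.9% stand beside 79.1%, 51.8% and 49.5% over all genes. Of 16 Wnt targets 11 of 13 measured were higher at day 3 and 9 of 12 at day 7, with medians of 1.19 and 1.30 on the log2 scale against 0.37 and 0.02 over all genes, and with TMM scaling 9 of 13 were higher at day 3. AXIN2, the feedback target of beta-catenin, had 14, 57, 4 and 117 UMIs (log2 ratios 2.21, 1.35 to 3.17, and 5.00, 3.61 to 6.90). AXIN2 was higher in shAPC at day 7 than at day 3, whereas KRT34, KRTAP1-5 and KRTAP2-3 were lower. Among the well-counted Wnt targets, CCND1 had log2 ratios of 0.22 and 0.03, MYC of 0.34 and -0.24, and DKK1, a secreted Wnt antagonist, of -0.36 and -0.69. With TMM scaling the day 3 ratios of KRT10 (-0.18), HOXC13 (-0.08), CCND1 (-0.16) and MYC (-0.04) turned sign.

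To compare the share of cells with a UMI across depths, each cell was thinned to 2000 UMIs, leaving out 217, 115, 1402 and 391 shallower cells. KRT34 was then seen in 2.78% (25 of 899 cells, exact binomial interval 1.81 to 4.08), 6.39% (43 of 673, 4.66 to 8.51), 2.67% (32 of 1198, 1.83 to 3.75) and 6.35% (69 of 1087, 4.97 to 7.97). The shares of KRTAP1-5 were 3.00% (1.99 to 4.34), 12.9% (10.5 to 15.7), 2.59% (1.76 to 3.65) and 9.84% (8.14 to 11.8). The shares of KRTAP2-3 were 5.12% (3.77 to 6.77), 18.3% (15.4 to 21.4), 4.26% (3.19 to 5.56) and 6.35% (4.97 to 7.97). For each gene the share was higher in the shAPC library at both days, least so for KRTAP2-3 at day 7, and since the genes were chosen on such values this is a description of 4 libraries, whose cells are not replicates. At least 1 of the 3 genes was seen in 9.90%, 30.9%, 9.10% and 19.3% of cells. Without thinning the shares were 19.9%, 45.2%, 7.46% and 22.8% for KRT34, 22.6%, 50.5%, 8.27% and 35.4% for KRTAP1-5, and 31.1%, 57.4%, 12.7% and 25.5% for KRTAP2-3. The cultures hold no cell type that should lack these genes, so the share given by free RNA was not tested. Kept barcodes under 2000 UMIs carried KRTAP2-3 at 68.7, 200, 37.1 and 75.1 CPM, above the level of the whole library in each case. For KRTAP1-5 these barcodes had 9.16 (1.11 to 33.1), 8.01 (0.20 to 44.6), 11.4 (5.90 to 20.0) and 80.8 CPM (53.7 to 117), from only 2 and 1 UMIs at day 3. Only in shAPC day 3 did the interval leave out the level of the whole library, lying below it. For KRT34 they had 18.3 (4.99 to 46.9), 72.1 (33.0 to 137), 11.4 (5.90 to 20.0) and 66.4 CPM (42.1 to 99.6), from 4 to 23 UMIs. Only in shAPC day 7 did the interval lie above the level of the whole library.

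**Figure D4:**
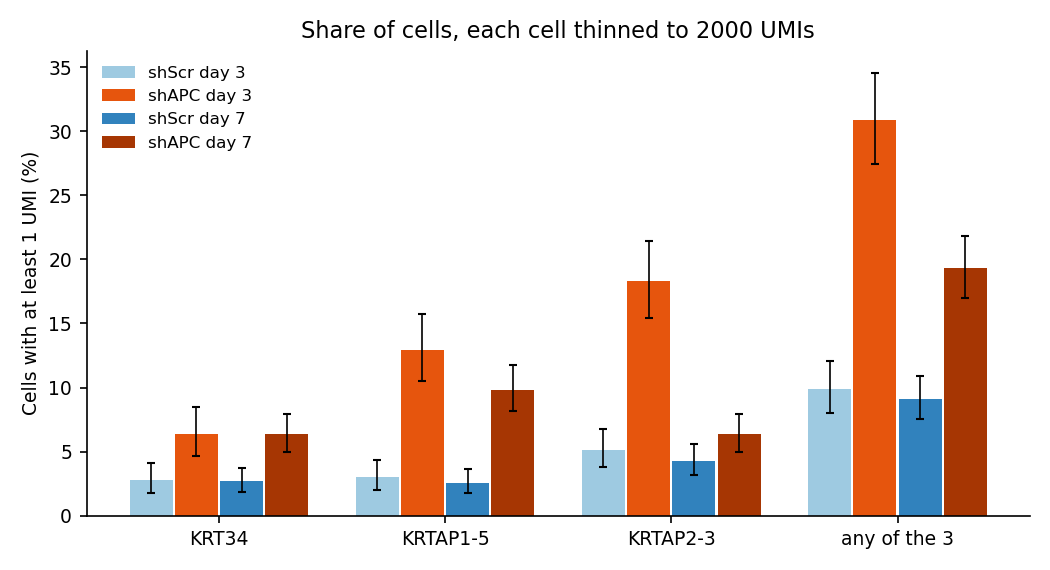
Bars give the percentage of kept cells with at least 1 UMI after each cell was thinned to 2000 UMIs, for each gene and for any of the 3, in the 4 libraries, with exact binomial 95% intervals. For any of the 3 genes the share is 30.9% in shAPC day 3 and 19.3% in shAPC day 7, against 9.90% and 9.10% in shScr.

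The counts were uneven between cells, and at 10000 UMIs per cell the positive cells held more molecules in shAPC. In cells thinned to 10000 UMIs, a cell positive for KRTAP1-5 held on average 1.53, 2.56, 1.35 and 2.07 UMIs, and one positive for KRT34 held 1.30, 1.79, 1.20 and 1.67. For KRTAP2-3 the means were 1.90, 2.78, 1.56 and 1.76. At day 7 its order turned at lower depths, with 1.44 in shScr and 1.37 in shAPC at 5000 UMIs and 1.18 and 1.07 at 2000 UMIs. Thinned to 5000 UMIs, the variance of KRTAP2-3 was 1.94, 2.72, 1.86 and 1.63 times its mean, where a Poisson count would give 1, and the ratio for KRT34 was 1.10 to 1.67. Without thinning, the 1% of kept cells with most KRT34 UMIs held 24.4%, 18.6%, 40.1% and 23.0% of them. Differences in depth enter these shares, since 1402 of the 2600 kept cells of shScr day 7 were under 2000 UMIs. A single cell of shAPC day 3 held 117 of the 1779 KRT34 UMIs (6.58%), and leaving out the top cell of each library kept all ratios of the 3 genes within their intervals. Among cells of at least 10000 UMIs, also without thinning, 42.7% in shAPC day 3 and 73.3% in shScr day 3 had no KRT34 UMI.

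Each pair of the 3 genes was counted in the same cells above the product of their shares in each library, though for 3 of the 12 pairs and libraries the counting interval of the ratio included 1. In cells thinned to 5000 UMIs, KRT34 and KRTAP2-3 were both seen in 12 cells of shScr day 3 against 5.90 from the product of the shares, in 47 against 30.9 in shAPC day 3, in 20 against 4.38 in shScr day 7, and in 28 against 12.5 in shAPC day 7. For KRTAP1-5 and KRTAP2-3 the observed number was 2.15, 1.45, 1.68 and 1.54 times that product, and for KRT34 and KRTAP1-5 it was 2.36, 1.26, 1.85 and 1.86 times, the 1.85 resting on 3 cells. The intervals that included 1 were those of KRT34 with KRTAP1-5 in shAPC day 3 (0.90 to 1.72) and shScr day 7 (0.38 to 5.41), and of KRTAP1-5 with KRTAP2-3 in shScr day 7 (0.67 to 3.46). The excess of KRT34 with KRTAP2-3 was thus present in both shScr libraries as well as in both shAPC libraries. Averaged over 20 repeats of thinning to 10000 UMIs, all 3 were seen in 12.7 cells of shScr day 3 (product of shares 1.65), 45.8 of shAPC day 3 (21.8), 4.10 of shScr day 7 (0.958) and 30.3 of shAPC day 7 (9.34). The range over repeats was 5 to 16, 34 to 53, 1 to 7 and 23 to 36 cells. KRT81, by the same repeats, shared 11.6 cells with KRTAP1-5 in shAPC day 3 (product 10.1) and 19.2 in shAPC day 7 (16.5), and 6.05 (7.01) and 10.2 (9.69) with KRT34.

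Across the cells of a library, KRTAP2-3 was the gene nearest to KRT34 and also the gene nearest to KRTAP1-5. Pearson r was taken over 765, 576, 919 and 927 kept cells of at least 10000 UMIs, after removing the effect of log total UMIs, for 9407 genes, and is given with no p because cells of a library share culture and library. The gene most like KRT34 by mean r over the libraries was KRTAP2-3 (0.40, with 0.40, 0.50, 0.35 and 0.35 in the 4 libraries), and the next were HSPB6 (a small heat shock protein, 0.30), KRT7 (0.30), QPRT (an enzyme of NAD synthesis, 0.29) and CCND2 (cyclin D2, 0.29). The gene most like KRTAP1-5 was also KRTAP2-3 (0.30), followed by DAB2 (an endocytic adaptor, 0.29), RND3 (0.25), CCND1 (0.22) and SMURF2 (a ubiquitin ligase, 0.22). For KRTAP2-3 the order was KRT34 (0.40), KRTAP1-5 (0.30), SMURF2 (0.27), RGMB (a BMP co-receptor, 0.27) and PSG4 (0.24). KRT34 and KRTAP1-5 were less alike, with a mean r of 0.21 and with 0.05 in shScr day 7. Such values are low and describe these cells only, and the part that sparse counts per cell have in them was not tested.

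By cell cycle phase, called from the Seurat S and G2M lists on cells thinned to 2000 UMIs, KRTAP1-5 was lower in G2M than in G1 cells in each library. Its levels in G1 and G2M were 20.2 and 9.57 CPM in shScr day 3, 99.2 and 35.3 in shAPC day 3, 14.2 and 5.23 in shScr day 7, and 63.4 and 26.9 in shAPC day 7. The log2 G2M over G1 ratios were -1.08 (-1.46 to -0.71), -1.49 (-1.68 to -1.31), -1.44 (-1.98 to -0.94) and -1.23 (-1.52 to -0.96). KRTAP1-5 was thus 2.11- to 2.81-fold higher in G1, with and without APC shRNA. With phases called on unthinned cells the log2 ratios were -1.67, -1.69, -1.45 and -2.04, in the same direction but larger in shScr day 3 and shAPC day 7 by over 1.5 times on the linear scale. KRT34 was lower in G2M in 3 libraries, with log2 ratios of -1.14 in shAPC day 3, -1.23 in shScr day 7 and -0.46 in shAPC day 7, and had 0.05 (-0.31 to 0.39) in shScr day 3. KRTAP2-3 had log2 ratios of -0.29, -0.27, -0.60 and, in shAPC day 7, 0.40 (0.15 to 0.65), which is the opposite direction. S phase calls held 29 to 83 cells per library. G1 cells were deeper than G2M cells, with median UMIs of 48894.5 and 35335 in shScr day 3, 56045 and 46389 in shAPC day 3, 26740.5 and 24640 in shScr day 7, and 26217.5 and 25896 in shAPC day 7. The part of depth and of free RNA in the phase values was not tested.

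**Figure D5:**
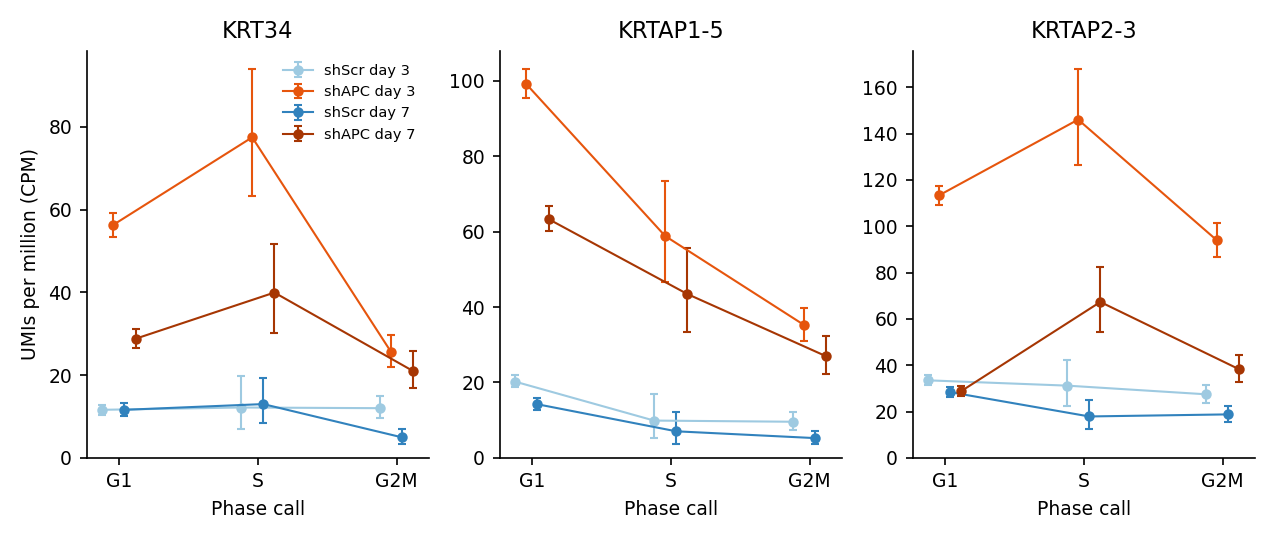
Points give the level (CPM) in cells called G1, S or G2M in each library, 1 panel per gene with its own axis from 0, and error bars are exact Poisson 95% intervals. KRTAP1-5 is lower in G2M than in G1 in all 4 libraries, whereas KRTAP2-3 in shAPC day 7 is higher in G2M (38.2 CPM) than in G1 (28.9 CPM).

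Barcodes removed by the mitochondrial limit, 346, 245, 1052 and 1551 in number, come from the same libraries but were not used for the choice of the genes. In them KRTAP1-5 had 15.8, 121, 7.66 and 94.7 CPM, with shAPC log2 ratios of 2.93 (2.58 to 3.29) at day 3 and 3.63 (3.34 to 3.93) at day 7, both above those of the kept cells. KRT34 had 19.4, 42.9, 8.29 and 23.4 CPM, with log2 ratios of 1.14 (0.79 to 1.50) and 1.50 (1.20 to 1.81). KRTAP2-3 had 52.4, 99.6, 23.5 and 25.9 CPM, with 0.93 (0.71 to 1.15) at day 3 and, at day 7, 0.14 with an interval that included 0 (-0.05 to 0.35). The order of the 3 genes at day 7 was therefore the same in these barcodes, and at day 3 the ratios of KRT34 and KRTAP2-3 were smaller than in kept cells. The removed barcodes were shallow in shScr day 3, with a median of 2578.5 UMIs against 11594 in shAPC day 3.

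Depth within the kept cells moved with the levels as well. Cells of 2000 to under 10000 UMIs had KRTAP2-3 at 103, 284, 54.8 and 57.3 CPM, against 31.5, 109, 26.0 and 32.1 CPM in cells of at least 30000 UMIs. For KRT34 at day 7 the shAPC log2 ratio was 1.82 (1.51 to 2.15) in cells of 10000 to under 30000 UMIs and 1.23 (0.97 to 1.49) in those of at least 30000, and for KRTAP1-5 the corresponding ratios were 2.48 and 2.10. At day 3 cells of at least 30000 UMIs, which hold most of the counts, gave 2.12 for KRT34, 2.26 for KRTAP1-5 and 1.79 for KRTAP2-3. The shallower cells of day 3 differed more, above all for KRTAP1-5, which was at 44.7 and 81.3 CPM in cells of 2000 to under 10000 UMIs (log2 ratio 0.86, 0.11 to 1.64) and at 18.0 and 115 CPM in those of 10000 to under 30000 (2.67, 2.16 to 3.19). In the same 2 ranges KRT34 had log2 ratios of 1.46 (0.49 to 2.49) and 1.81 (0.95 to 2.65), and KRTAP2-3 of 1.47 (1.02 to 1.93) and 1.78 (1.31 to 2.26). The part of depth in the differences between libraries was not tested further.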

How the data were processed

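Single-cell RNA-seq of 4 libraries, 1 per group, was analysed. The authors aligned reads to hg38 with Cell Ranger and deposited raw UMI counts per gene and called barcode (33538 genes, 10x matrices). Per the file headers the matrices of both shScr libraries were written by Cell Ranger 3.0.2 and those of both shAPC libraries by 3.0.0, so version and shRNA cannot be told apart. The submitters' processing notes list Cell Ranger 3.0.2, STAR and GRCh38. The labels give a retroviral vector and a v2 kit, the methods a lentiviral vector and a V3 kit. The annotation release and the handling of reads with several matches are not given in the sources used here.

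Barcodes were kept from 200 genes and 500 UMIs on, if mitochondrial genes gave below 5% of the UMIs. UMIs were summed per library and divided by the kept total (CPM). Doublets were not removed, and leaving out the deepest 5% of cells served as an alternative. CPM have exact Poisson, ratios exact conditional (Clopper-Pearson) and shares exact binomial 95% intervals, which cover counting error only. Having 1 library per group, the comparisons carry no test and no p-value. The lists use genes of at least 4 UMIs in 1 library compared, and the genome-wide ratios those of at least 20 CPM, with 1 CPM added. Cells were thinned without replacement to 2000 UMIs for shares and phase calls (Seurat 5.3.0 gene lists, scanpy 1.11.5) and to 5000 for co-detection. Positions are from GENCODE 44, in which 98.7% of the gene IDs were found, and the sequences from RefSeq, where all 4 genes shown matched. Alternatives used edgeR 4.0.16 TMM and DESeq2 1.42.0 size factors. The ratio, interval and thinning code was tested on simulated data.

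The members and lists were chosen with earlier results of these data known. Named genes are the 3 members, type I hair keratins and chromosome 17 keratin-associated proteins of at least 4 UMIs in 1 library, genes of the other keratin, regulator and Wnt lists of at least 20 CPM together with LEF1, AXIN2 and HOXC13, both neighbours on each side of a member, the 5 genes most like each member across cells, the genes at least 2-fold higher in shAPC at both days with the nearest outside, and APC.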

Additional observations from a re-analysis of the deposited data

Results flagged for a closer look

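BAMBI, KRT10, KRT18 and MYC stood out among the genes of the lists read here because their shAPC against shScr difference had opposite signs at the 2 days, each with a counting interval that excluded 0. KRT10 had a log2 ratio of 0.20 at day 3 and of -0.14 at day 7, and MYC had 0.34 at day 3 and -0.24 at day 7. KRT18, a type I keratin of simple epithelia, had 0.76 (0.48 to 1.06) at day 3 and -0.77 (-1.17 to -0.38) at day 7, and BAMBI, a Wnt target that acts as a TGF-beta pseudoreceptor, had 2.23 (1.87 to 2.61) and -0.97 (-1.35 to -0.60). KRT18 and BAMBI were under the level set for naming and were singled out after their values were seen. With 1 library per group, the difference between the days was not tested against the spread of libraries. With TMM scaling the ratios at day 3 were -0.18 for KRT10 and -0.04 for MYC, and the opposite signs were lost, whereas KRT18 (0.38 and -0.78) and BAMBI (1.85 and -0.98) kept them. None of KRT34, KRTAP1-5 and KRTAP2-3 had opposite signs at the 2 days, which follows from their choice as genes higher in shAPC at both days.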

How the results depend on the processing

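The direction of each shAPC against shScr ratio of KRT34, KRTAP1-5 and KRTAP2-3 was kept under every alternative run, with log2 ratios at day 3 of 1.65 to 2.12, 1.85 to 2.35 and 1.39 to 1.79, and at day 7 of 1.44 to 1.61, 2.21 to 2.83 and 0.22 to 0.49. Values that moved beyond their counting interval follow, as log2 ratios in the order KRT34, KRTAP1-5, KRTAP2-3 where all 3 did. At day 3 they were 1.74, 1.85 and 1.39 with edgeR's TMM factors, 1.75, 1.87 and 1.41 with DESeq2's size factors, and 1.65, 1.87 and 1.46 as means over cells. Without the 5% of cells with most UMIs, KRT34 was at 1.89 and KRTAP1-5 at 2.35. KRTAP2-3 was at 1.66 with totals free of mitochondrial and ribosomal protein genes, at 1.66 with all deposited barcodes and at 1.66 with a mitochondrial limit of 10%. At day 7 KRTAP1-5 was at 2.83 with all barcodes and 2.82 with the 10% limit, and KRTAP2-3 at 0.49 as a mean over cells. From day 3 to day 7 in shAPC the ratios were -0.53, -0.26 and -1.45 with TMM, -0.53, -0.26 and -1.45 with DESeq2 factors, -0.65, -0.38 and -1.58 with the reduced totals, and -0.39, -0.15 and -1.55 as means over cells. KRT34 was at -0.67 without the deepest 5% of cells, KRTAP1-5 at -0.25 with all barcodes and -0.26 with the 10% limit, and KRTAP2-3 at -1.89 and -1.88. In shScr, KRTAP2-3 was at -0.59 as a mean over cells and -0.46 with all barcodes.

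The shAPC over shScr ratio of the share of cells at day 3 was 2.24 for KRTAP1-5 without thinning, and for KRTAP2-3 it was 1.84 without thinning, 2.48 at 5000 UMIs and 2.15 at 10000 UMIs. Without thinning, cells with both genes over the product of shares were 1.25 for KRT34 with KRTAP1-5 in shAPC day 7, and 1.88 and 1.47 for KRT34 with KRTAP2-3 in shScr and shAPC day 7. For KRT34 with KRTAP1-5 in shScr day 7, where 3 cells held both, leaving out the deepest 5% of cells gave 0, the opposite direction. With phases called without thinning, the G2M over G1 ratio of KRT34 in shScr day 3 turned to -0.10, and that of KRTAP1-5 was -1.67, -1.69 and -2.04 in shScr day 3, shAPC day 3 and shAPC day 7. The cause was not tested for these changes.

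Genes at least 2-fold higher numbered 37 at day 3, 7 at day 7 and 0 at both days from 100 CPM on, and 491, 164 and 37 with no minimum. They numbered 83 with TMM and 84 with DESeq2 factors at day 3, and 23 at day 7 with 5 CPM added. The number of genes tested changes with the minimum level, so these counts cannot be read as shares. With at least 20 UMIs required, fewer genes are measured. Higher in shAPC were then 1 of 1 type I hair keratin (KRT34) at day 3 and at day 7. At day 3 the numbers were 2 of 2 chromosome 17 keratin-associated proteins (KRTAP1-5 and KRTAP2-3), 1 of 1 type II hair keratin and 7 of 8 Wnt targets. KRT34, KRTAP1-5 and KRTAP2-3 had been chosen for being higher. Over all genes at this limit 81.1% were higher at day 3 and 49.2% at day 7. Of the values under alternatives, 156 stayed within their limits, 60 moved and 2 reversed, and those within the limits include all of those without shared barcodes and without the top cell of each gene, which were chosen after seeing the data. No paired analysis was possible because each group holds 1 library and no test was run, and no replicate could be left out.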
